A study of Mus musculus with 4 samples.

Results

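The genes described here carry out mitochondrial fatty acid beta-oxidation or handle the acyl-CoA molecules that feed it: acyl-CoA dehydrogenases, the later enzymes of the cycle, electron transfer flavoprotein, acyl-CoA synthetases, thioesterases, acyl-CoA-binding protein and enoyl-CoA hydratase domain proteins. They were taken from a list of 39 gene symbols, and 38 of the 39 had a row among the 12165 genes of the expression table; Acsl6 had none and is not analysed here. The list goes by gene name and sets no threshold on a measured value, but it was drawn up with earlier results of these data known. Expression was measured by sequencing polyadenylated RNA of brown adipose tissue from mice aged 8 weeks. The wild-type group (WT) and the knockout group for Ebf2 (Ebf2 KO) held 2 libraries each, all from mice of mixed strain kept at room temperature on chow. Ebf2 encodes a transcription factor of brown fat cells and their precursors, and the labels do not say which part of the gene was removed or in which cells. The labels do not say whether a library came from 1 mouse or from pooled mice, so p-values measure the spread between these libraries.

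Beta-oxidation shortens a fatty acyl-CoA step by step: a dehydrogenase introduces a double bond, a hydratase adds water, a second dehydrogenase oxidises the hydroxyl group and a thiolase releases acetyl-CoA. Different enzymes serve long, medium and short chains, and the electrons of the first step pass through electron transfer flavoprotein and its oxidoreductase to ubiquinone. Synthetases activate free fatty acids to acyl-CoA, thioesterases turn acyl-CoA back into free fatty acid, and in brown fat this fuel supports heat production by uncoupled respiration.

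Levels are RPKM (reads scaled by gene length and by the reads of the library), so levels of different genes are compared per length. The libraries held between 162782640 and 199678916 reads in the RPKM denominator, and the fewest reads recovered for any of the 38 genes in a library were 98, for Acsm5. Ebf2 was at 2.97 and 2.63 RPKM in WT and at 0.391 and 0.352 RPKM in Ebf2 KO. Reads in listed genes made up 43.2% and 45.4% of the denominator in WT and 59.0% and 61.7% in Ebf2 KO, and over all 12165 genes the log2 fold change had a median of 0.45 on log2(RPKM + 1). Changes on RPKM are therefore set beside those after the median log2 value of each library was subtracted (centring), as counts for the genes called both ways and singly where the calls differ; "rose" and "fell" refer to a limma adjusted p below 0.05 on log2(RPKM + 1), a scale that understates the change of genes near 1 RPKM. Ebf2 KO replicate 2 stood apart in Xist (0.0353 RPKM, against 5.05 to 6.19 in the other libraries), and results without it are given for some lists and genes. The 6 general fat cell markers summed to 18730.1 and 13623 RPKM in WT and to 28976 and 26310.0 RPKM in Ebf2 KO; 3 of the 6 rose and none fell on RPKM (1 rose without Ebf2 KO replicate 2, and 1 fell without WT replicate 1), but after centring none was higher and 1 was lower (none without WT replicate 2 or Ebf2 KO replicate 2). Beside these and the marker counts below, 24.4% of all genes rose and 3.54% fell on RPKM. After centring, 8.42% of all genes were higher and 10.3% lower. All 7 brown fat markers fell, from sums of 7905 and 9105 to 131 and 98.1 RPKM. The 18 skeletal muscle markers summed to 1199 and 3185 RPKM in WT and to 10929 and 12511 in Ebf2 KO, and 14 of 18 rose. All 7 fibroblast and precursor markers rose (sums of 226 and 494 against 1197 and 2155 RPKM), 3 of the 4 macrophage markers with a row rose (8.83 and 19.8 against 35.0 and 44.7 RPKM; 1 without Ebf2 KO replicate 2), the 4 endothelial markers showed no call (57.9 and 91.9 against 74.8 and 90.9 RPKM; 1 rose without WT replicate 2), and both liver markers with a row rose (1.20 and 0.680 against 22.5 and 10.4 RPKM). After centring, 11 of the 18 muscle markers (3 without WT replicate 1, 17 without WT replicate 2) and 5 of the 7 fibroblast and precursor markers (1 without WT replicate 1, 2 without Ebf2 KO replicate 2) were higher. So were 3 of the 4 macrophage markers (none without WT replicate 1, 1 without Ebf2 KO replicate 2) and both liver markers (1 without WT replicate 1, none without WT replicate 2), while all 7 brown fat markers were lower. Muscle also uses most of the enzymes described here; the part of these other cells in the results was not tested. In whole tissue, fewer cells of a type and less RNA per cell cannot be told apart.

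Hadha and Hadhb, which encode the alpha and beta subunits of the mitochondrial trifunctional protein, are transcribed in opposite directions from starts with 272 bases between them in the RefSeq annotation. The stretch common to both promoter windows is shown because both genes fell in Ebf2 KO. It lies at chr5:30155003-30155230 in GRCm38.p6 and is written 5′ to 3′ on the plus strand, the strand of Hadhb.

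Hadha and Hadhb: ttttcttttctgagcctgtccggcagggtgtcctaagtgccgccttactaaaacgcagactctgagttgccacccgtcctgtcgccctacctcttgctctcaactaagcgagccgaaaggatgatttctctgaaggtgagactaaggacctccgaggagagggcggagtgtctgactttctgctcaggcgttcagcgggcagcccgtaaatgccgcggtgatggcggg

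RefSeq promoter windows (250 bases before to 50 after a start) numbered 38 for 34 of these genes. Acad9, Acaa2, Decr1 and Acot13 are not included. The palindromic EBF core CCCNNGGG occurred in 6 of the 38 windows (15.8%). Among the genes of the table that had such a window, it occurred in 18.3% of 11435 windows. It stood in windows of Acsl1, Acsl3, Acad12, Acsf2, Acot1 and Acot11. Of these genes, only Acot11 was called on RPKM, where it fell. For Acsl1 the match lay in the window of the second start alone. A pair of AGGNCA units 1 base apart is the form bound by PPAR and RXR. This pair and the ERR element TCAAGGTCA, each searched on both strands, had no match in the 38 windows. They occurred in 0.254% and 0.262% of the 11435 windows. With shares this low, 38 windows were too few for the absence of a match to set these genes apart. A match is a description of the letters and not of binding. The first 250 bases of 2 windows are shown, with the EBF core in capitals: Acot11, which had the largest ratio between WT and Ebf2 KO of the 38 genes (chr4:106805008-106805257, minus strand), and the second start of Acsl1, the most abundant synthetase (chr8:46490716-46490965, plus strand), both in GRCm38.p6 and 5′ to 3′ on the strand of the gene.
Acot11: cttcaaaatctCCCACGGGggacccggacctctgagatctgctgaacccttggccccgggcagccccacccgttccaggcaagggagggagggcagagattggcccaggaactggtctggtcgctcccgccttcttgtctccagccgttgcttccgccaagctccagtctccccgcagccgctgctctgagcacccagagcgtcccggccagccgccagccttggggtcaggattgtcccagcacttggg
Acsl1: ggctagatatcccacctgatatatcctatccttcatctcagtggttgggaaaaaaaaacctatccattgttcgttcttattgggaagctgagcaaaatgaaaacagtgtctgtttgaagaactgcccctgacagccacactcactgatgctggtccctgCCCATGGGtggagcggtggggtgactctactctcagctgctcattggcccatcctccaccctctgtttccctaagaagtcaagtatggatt

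On RPKM, 4 of the 8 acyl-CoA dehydrogenases, 4 of the 5 genes for the later steps, 2 of the 3 for unsaturated fatty acids and all 3 of electron transfer fell in Ebf2 KO, and none of these rose. None of the 4 long-chain synthetases was called; of the 5 other synthetases 2 fell and 1 rose, and of the 6 thioesterases 2 fell and none rose. The difference between these groups was not tested. Over the 38 genes, 17 fell and 3 rose on RPKM. Of all 12165 genes, 3.54% fell and 24.4% rose in the same test. After centring, 19 of the 38 were lower and 2 higher, against 10.3% and 8.42% of all genes, and by the FDR of the authors' deposited table, at 0.05, 23 of the 38 were lower and 3 higher, against 10.5% and 10.9%. All 17 genes that fell on RPKM were also lower after centring and in the authors' deposited table, and 12 of the 38 had no call in any of the 3. The median log2 fold change of the 38 genes was -0.62 on RPKM and -1.14 after centring, beside 0.45 and -0.07 for all genes. Leaving out Ebf2 KO replicate 2 gave medians of -0.47 on RPKM and -0.89 once centred, beside 0.36 and -0.06 for all genes. Fewer of the 38 genes, and of all genes, were called lower on RPKM without it than without any other library. On RPKM the median was -0.68 without WT replicate 1 and -0.60 without WT replicate 2, beside 0.35 and 0.57 for all genes. Once centred, it was -1.30 without WT replicate 2 and -1.36 without Ebf2 KO replicate 1, beside -0.13 and -0.08 for all genes. The 38 genes together summed to 9372 and 8965 RPKM in WT and to 5349 and 5198 RPKM in Ebf2 KO.

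**Figure D1:**
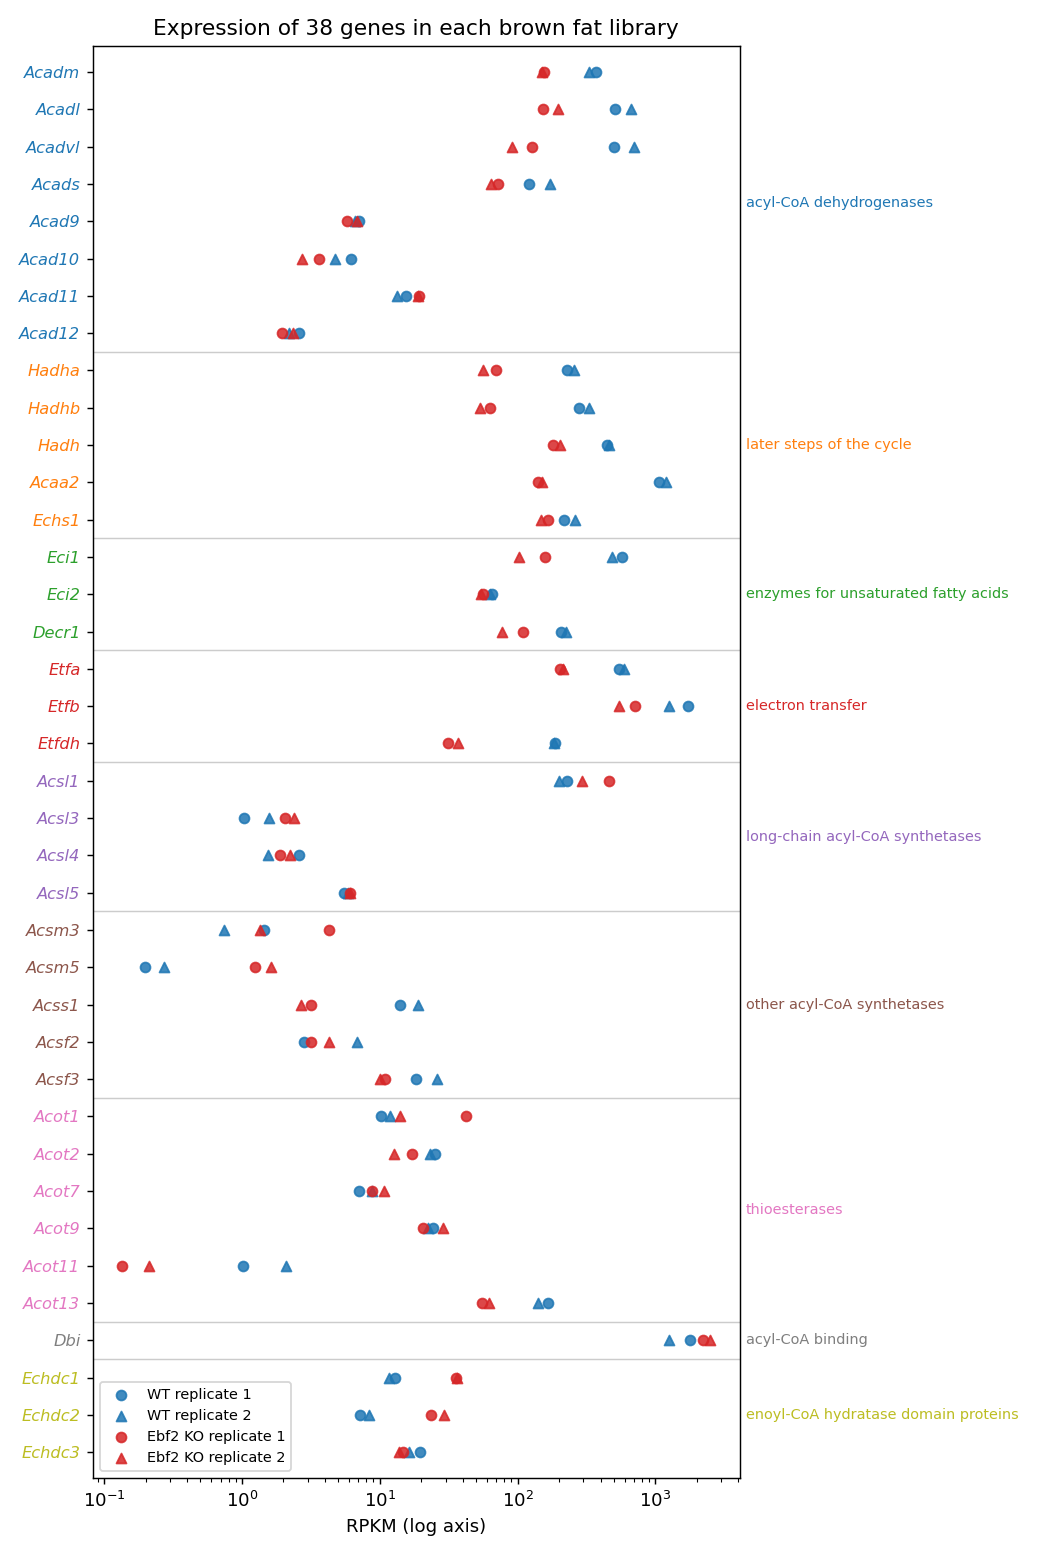
RPKM (log axis) of each of the 38 genes in the 4 libraries, grouped by role; blue is WT, red is Ebf2 KO, circles are replicate 1 and triangles replicate 2. The red points lie left of the blue ones for the abundant enzymes of the cycle (Acaa2 at 1053 and 1195 against 141 and 151 RPKM), and right of them for Acsl1, Dbi, Echdc1 and Echdc2.

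The first step of each round is catalysed by acyl-CoA dehydrogenases chosen by chain length, and all 4 of the classical ones fell. Acadvl, the very-long-chain enzyme of the inner membrane, was at 503 and 694 RPKM in WT and at 126 and 91.6 RPKM in Ebf2 KO. The genotypes were far apart, with means of 599 ± 135 and 109 ± 24.4 RPKM (SD, n = 2 each), and the gene fell 5.50-fold (log2 fold change -2.45, SE 0.270, limma adjusted p = 0.00271). Acadl, the long-chain enzyme, was at 508 and 664 RPKM in WT and at 153 and 195 in Ebf2 KO. The groups were well apart here too, with a 3.37-fold lower mean (log2 fold change -1.75, SE 0.257, limma adjusted p = 0.00589). Acadm, the medium-chain enzyme, went from 371 and 332 RPKM to 155 and 152, and the short-chain Acads from 122 and 172 to 72.6 and 63.6. These falls were smaller, at 2.30-fold and 2.16-fold (limma adjusted p = 0.0104 and 0.0182), and neither passed without Ebf2 KO replicate 2 (0.0853 and 0.105). Within each library, which takes library scaling out of the comparison, the ratio of Acadvl to Acadm was 1.36 and 2.09 in WT and 0.816 and 0.605 in Ebf2 KO, a 2.43-fold difference of the mean ratio with no overlap. Acadl over Acadm was 1.37 and 2.001 against 0.987 and 1.29, while Acads over Acadm overlapped between the groups (0.328 and 0.520 against 0.469 and 0.420). These ratios, like those below, were chosen after the values were seen and are given without a test; with 2 libraries against 2 a single ratio could not pass an exact permutation test at 0.05.

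The 4 further dehydrogenases were much less abundant. Acad9, which also serves in complex I assembly, was at 7.08 and 6.64 RPKM in WT and at 5.75 and 6.84 in Ebf2 KO, and its groups overlapped, as did those of Acad12 (2.61 and 2.20 against 1.94 and 2.34 RPKM). Neither passed the test on RPKM (limma adjusted p = 0.718 and 0.714) or after centring (0.0767 and 0.0606), whereas Acad9 was called lower in the authors' deposited table (-0.79 on the log2 scale, FDR 0.0384). Acad10 was at 6.20 and 4.76 RPKM in WT and at 3.63 and 2.75 in Ebf2 KO; it did not pass on RPKM (limma adjusted p = 0.103) and was lower after centring (log2 fold change -1.15, adjusted p = 0.0142). The transcripts of Acad10 and its neighbour Acad12 share 16.8% and 15.7% of their 50-base words in the GENCODE M21 annotation, so some reads of the pair may not be separable. Acad11, at 15.5 and 13.3 RPKM in WT and 19.2 and 19.0 in Ebf2 KO, had a log2 fold change of 0.39 on RPKM and of -0.14 after centring, with no call in either.

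Of the 5 genes for the later steps, 4 fell, and the short-chain hydratase gave no call. Acaa2, the mitochondrial ketoacyl-CoA thiolase, was at 1053 and 1195 RPKM in WT and at 141 and 151 in Ebf2 KO. The libraries of a genotype lay close together, with means of 1124 ± 100.1 and 146 ± 7.30 RPKM (SD, n = 2 each), and the gene fell 7.69-fold (log2 fold change -2.93, SE 0.235, limma adjusted p = 9.47e-04). Hadhb, whose product carries the thiolase of the trifunctional protein, went from 277 and 331 RPKM to 63.1 and 53.6 and Hadha, which carries its hydratase and long-chain hydroxyacyl-CoA dehydrogenase, from 227 and 258 to 70.2 and 55.8. The divergent pair thus fell together, by 5.22-fold and 3.85-fold (limma adjusted p = 0.00147 and 0.00281). Part of the Hadhb sequence, 18.1% of its 50-base words, is shared with Gm13910, which has no row in the table. The ratio of Hadha to Hadhb within a library was 0.821 and 0.777 in WT and 1.11 and 1.04 in Ebf2 KO, without overlap. Acaa2 over Hadhb was 3.80 and 3.61 in WT and 2.23 and 2.82 in Ebf2 KO.

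Hadh, the hydroxyacyl-CoA dehydrogenase for shorter chains, was at 444 and 459 RPKM in WT and at 180.4 and 204 in Ebf2 KO. Its groups were apart and it fell 2.35-fold (log2 fold change -1.23, SE 0.222, limma adjusted p = 0.0106), a call lost without either Ebf2 KO library (0.0701 without replicate 1, 0.0686 without replicate 2). Echs1, the short-chain enoyl-CoA hydratase, was at 218 and 262 RPKM in WT and at 167 and 148 in Ebf2 KO. The Ebf2 KO values were the lowest pair, but this gene had no call on RPKM (limma adjusted p = 0.0738) or after centring (0.0526); it was called lower in the authors' deposited table (-1.23 on the log2 scale, FDR 0.00369) and without WT replicate 1 (limma adjusted p = 0.0215). The ratio of Hadhb to Echs1 was 1.27 in each WT library against 0.379 and 0.362 in Ebf2 KO, so the mean ratio was 3.43-fold lower, with little spread inside either genotype. Hadhb over Hadh was 0.624 and 0.722 in WT and 0.350 and 0.263 in Ebf2 KO.

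**Figure D2:**
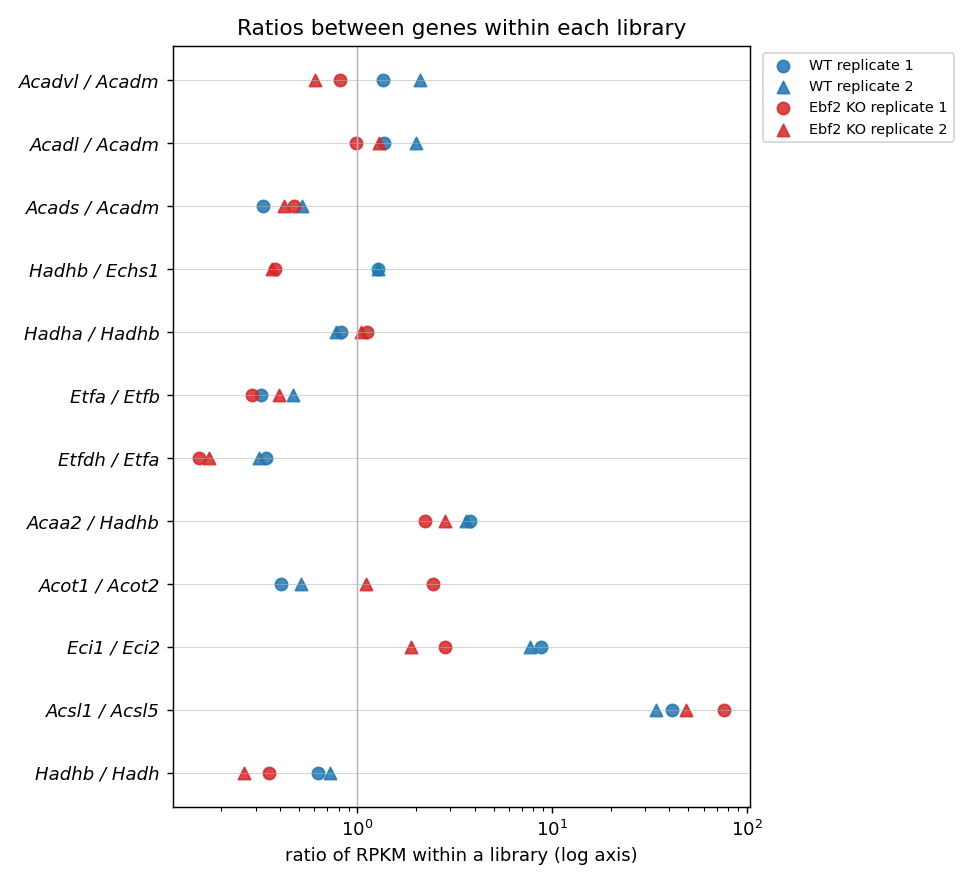
Ratio of RPKM between pairs of genes within each library (log axis); blue is WT, red is Ebf2 KO, circles are replicate 1 and triangles replicate 2. Hadhb over Echs1 is 1.27 in both WT libraries and 0.379 and 0.362 in Ebf2 KO, whereas Acads over Acadm and Etfa over Etfb overlap between the genotypes.

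Double bonds of unsaturated fatty acids need auxiliary enzymes. Eci1, an enoyl-CoA isomerase of the matrix, was at 569 and 484 RPKM in WT and at 158 and 102 in Ebf2 KO, and fell 4.04-fold (log2 fold change -2.04, SE 0.274, limma adjusted p = 0.00451). Eci2, the other isomerase, which is found in peroxisomes as well as mitochondria, was at 65.2 and 62.7 RPKM in WT and at 56.1 and 54.4 in Ebf2 KO, with no call on RPKM (limma adjusted p = 0.402) or after centring (0.121). The pair therefore had a ratio of Eci1 to Eci2 of 8.74 and 7.72 in WT and of 2.83 and 1.88 in Ebf2 KO, a 3.50-fold lower mean ratio. Decr1, the dienoyl-CoA reductase, went from 206 and 224 RPKM to 109.9 and 77.5, a fall of 2.30-fold (limma adjusted p = 0.0136) that did not pass without Ebf2 KO replicate 2 (0.117).

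The 3 genes that pass electrons from the dehydrogenases to ubiquinone all fell. Etfdh, the ubiquinone oxidoreductase of the inner membrane, was at 185 and 183 RPKM in WT and at 31.0 and 36.7 in Ebf2 KO. The WT libraries differed by little; the means were 184 ± 1.96 and 33.9 ± 4.03 RPKM (SD, n = 2 each), and the gene fell 5.43-fold (log2 fold change -2.41, SE 0.2001, limma adjusted p = 9.86e-04). Etfa, the alpha subunit of the flavoprotein, went from 547 and 588 RPKM to 203 and 213 (2.73-fold, limma adjusted p = 0.00693, and 0.0558 without Ebf2 KO replicate 2). Etfb, the beta subunit and after Dbi the most abundant of the 38 genes in each genotype's mean, went from 1722 and 1263 RPKM to 705 and 541 (2.40-fold, limma adjusted p = 0.0255). The call of Etfb was lost without either Ebf2 KO library (0.104 without replicate 1, 0.312 without replicate 2), and 43.8% of its 50-base words are shared with the same-strand gene Gm45233, which has no row in the table either. The ratio of Etfa to Etfb overlapped between the genotypes (0.318 and 0.465 against 0.288 and 0.394), while Etfdh over Etfa was 0.339 and 0.311 in WT and 0.153 and 0.172 in Ebf2 KO.

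**Figure D3:**
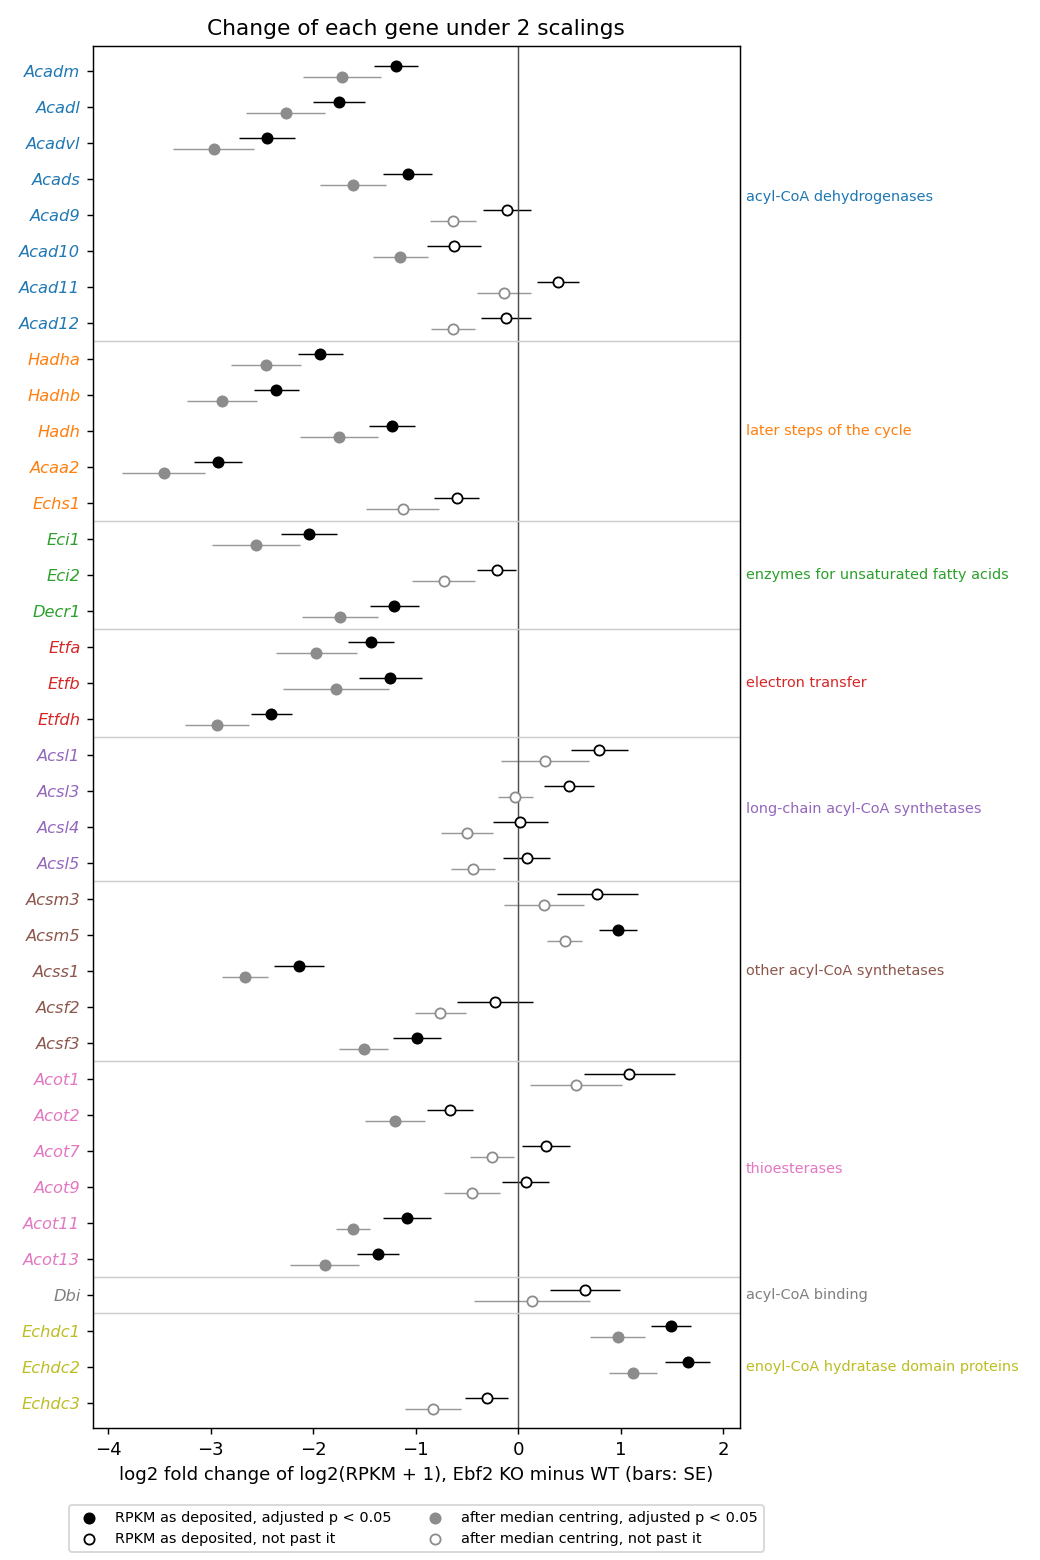
Log2 fold change of log2(RPKM + 1), Ebf2 KO minus WT, with its SE (bars), for each of the 38 genes; black is RPKM as deposited, grey is after median centring, filled points pass a limma adjusted p of 0.05 and open points do not. Acaa2 lies farthest left at -2.93 (-3.46 after centring), and Echdc2 farthest right at 1.65 (1.12 after centring).

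The long-chain acyl-CoA synthetases gave no call under either scaling. Acsl1, the main synthetase of fat cells, was at 227 and 199 RPKM in WT and at 459.6 and 293 in Ebf2 KO. The Ebf2 KO libraries were the higher pair, replicate 1 by far, but the gene had no call on RPKM (log2 fold change 0.79, SE 0.276, limma adjusted p = 0.0662) or after centring (0.26, adjusted p = 0.719). It passed on RPKM without WT replicate 1 or without WT replicate 2 (limma adjusted p = 0.00858 and 0.0284). Acsl5 was at 5.46 and 5.85 RPKM in WT and at 6.04 in each Ebf2 KO library, Acsl3 at 1.03 and 1.58 against 2.05 and 2.39, and Acsl4 at 2.57 and 1.55 against 1.90 and 2.24. Their limma adjusted p on RPKM were 0.790, 0.151 and 0.957, and the log2 fold changes of these 3 were 0.08, 0.49 and 0.02 on RPKM but -0.44, -0.03 and -0.50 after centring. Acsl1 held 96.2% and 95.7% of the summed RPKM of the 4 genes in WT and 97.9% and 96.5% in Ebf2 KO. The share of Acsl5 was 2.32% and 2.80% in WT and 1.29% and 1.99% in Ebf2 KO. In the order of the 38 mean levels, Acsl1 stood at place 14 in WT and at place 3 in Ebf2 KO.

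Of the other synthetases, 2 fell and 1 rose. Acss1, which makes acetyl-CoA from acetate in the mitochondrial matrix, was at 14.1 and 18.9 RPKM in WT and at 3.18 and 2.70 in Ebf2 KO. The means were 16.5 ± 3.37 and 2.94 ± 0.338 RPKM (SD, n = 2 each), well apart, and the gene fell 5.62-fold (log2 fold change -2.14, SE 0.247, limma adjusted p = 0.00298). Acsf3, a mitochondrial malonyl-CoA synthetase, went from 18.4 and 25.9 RPKM to 11.0 and 10.1, a fall of 2.10-fold (limma adjusted p = 0.0230, and 0.104 without Ebf2 KO replicate 2). Acsm5, a medium-chain synthetase, was near the lower end of the table at 0.197 and 0.271 RPKM in WT and at 1.24 and 1.62 in Ebf2 KO. It rose 6.12-fold on RPKM (log2 fold change 0.97, limma adjusted p = 0.0121), a call that was not made after centring (0.45, adjusted p = 0.0870) or without Ebf2 KO replicate 2 (0.0566) and was made in the authors' deposited table (1.98 on the log2 scale, FDR 0.00140). Acsf2 varied more between the WT libraries (2.84 and 6.89 RPKM) than between the genotypes (3.15 and 4.28 RPKM in Ebf2 KO), with no call on RPKM (limma adjusted p = 0.629) or after centring (0.0576) and a lower call in the authors' deposited table (-0.98 on the log2 scale, FDR 0.0333); 33.3% of its 50-base words are shared with Gm5540, which has no row in the table. Acsm3 was high in 1 library only, at 4.27 RPKM in Ebf2 KO replicate 1 against 1.35 in replicate 2 and 1.44 and 0.743 in WT (limma adjusted p = 0.159).

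Among the thioesterases, Acot13 and Acot11 fell. Acot13, a thioesterase bound to mitochondria, went from 166 and 140.4 RPKM in WT to 55.6 and 61.6 in Ebf2 KO. The groups did not overlap, with a 2.62-fold fall (log2 fold change -1.37, SE 0.206, limma adjusted p = 0.00627). Acot11, known as brown fat-inducible thioesterase, was scarce, at 1.02 and 2.08 RPKM in WT and 0.136 and 0.210 in Ebf2 KO. The 8.97-fold lower mean appeared as a log2 fold change of only -1.09 on log2(RPKM + 1) (limma adjusted p = 0.0173, and 0.0610 without Ebf2 KO replicate 2) and the authors' deposited table gives -3.78 (FDR 9.73e-14). Acot2, the mitochondrial long-chain thioesterase, was at 25.1 and 23.2 RPKM in WT and at 17.2 and 12.7 in Ebf2 KO, and Acot1, its cytosolic counterpart, at 10.2 and 11.9 against 42.3 and 14.0. Acot2 was called lower after centring (log2 fold change -1.20, limma adjusted p = 0.0175) and not on RPKM (0.0577). Acot1 was high in Ebf2 KO replicate 1 alone and had no call (limma adjusted p = 0.0972 on RPKM and 0.427 after centring), although it passed on RPKM without WT replicate 1 (0.0120), WT replicate 2 (0.00208) or Ebf2 KO replicate 2 (0.00394). The ratio of Acot1 to Acot2 was 0.405 and 0.514 in WT and 2.45 and 1.10 in Ebf2 KO; these paralogs share 13.6% of the 50-base words of Acot1 and 24.5% of those of Acot2, so reads may have been divided between them. Acot7 (7.12 and 8.74 RPKM in WT, 8.80 and 10.7 in Ebf2 KO) and Acot9 (24.2 and 22.3, 20.6 and 29.0) had limma adjusted p of 0.385 and 0.815 and log2 fold changes of 0.27 and 0.07 on RPKM that were -0.26 and -0.45 after centring; 15.2% of the 50-base words of Acot9 are shared with Acot10, which has no row in the table.

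Dbi, the acyl-CoA-binding protein that carries acyl-CoA through the cytosol, was the most abundant of the 38 genes in the mean of each genotype. Its level was 1776 and 1259.6 RPKM in WT against 2217 and 2496 RPKM in Ebf2 KO. The Ebf2 KO pair was the higher one, but WT varied widely and the gene had no call on RPKM (log2 fold change 0.65, SE 0.342, limma adjusted p = 0.168) or after centring (0.13, adjusted p = 0.902), and it passed on RPKM without WT replicate 1 (0.0372). The authors' deposited table gives it a change of -0.05 on the log2 scale (FDR 0.954).

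Of the 3 enoyl-CoA hydratase domain genes, Echdc1 and Echdc2 rose. Echdc2, a mitochondrial member of the family, was at 7.18 and 8.32 RPKM in WT and at 23.5 and 29.4 in Ebf2 KO. The mean rose 3.42-fold (log2 fold change 1.65, SE 0.221, limma adjusted p = 0.00451), and the rise also passed after centring (1.12, adjusted p = 0.00861). Echdc1, which encodes the cytosolic ethylmalonyl-CoA decarboxylase, was at 12.9 and 11.6 RPKM in WT and at 35.9 and 36.5 in Ebf2 KO. Its 2.96-fold rise passed on RPKM (limma adjusted p = 0.00428) and after centring (0.0306), but not by limma-voom on recovered reads (log2 fold change 0.90, adjusted p = 0.0731). Echdc3 was at 19.6 and 16.4 RPKM in WT and at 14.8 and 13.8 in Ebf2 KO, with no call on RPKM (limma adjusted p = 0.274) or after centring (0.0599), and a lower call in the authors' deposited table (-0.99 on the log2 scale, FDR 0.0121).

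Some of these genes overlap a neighbour on the other strand, and no source states whether reads were counted by strand. In GENCODE M21, 75.9% of the exonic bases of Echdc1 lie in exons of Rnf146, which encodes a ubiquitin ligase. Rnf146 was at 10.5 and 10.1 RPKM in WT and at 27.4 and 28.1 in Ebf2 KO, rising like Echdc1 (limma adjusted p = 0.00583), and the ratio of Echdc1 to Rnf146 lay between 1.15 and 1.31 in all 4 libraries, and without strand the reads of the pair cannot be told apart. Fam151a, whose exons hold 20.9% of the exonic bases of Acot11, was at 0.953 and 2.05 RPKM in WT and at 0.0896 and 0.152 in Ebf2 KO. It fell like Acot11 (limma adjusted p = 0.0166), and without strand the reads in their shared bases cannot be told apart. Acsm3 shares 39.7% of its exonic bases with Eri2, and the ratio of Acsm3 to Eri2 was 0.967 and 0.882 in WT and 1.22 and 0.740 in Ebf2 KO. Acadvl shares 42.9% with Dvl2, which stood at 0.855 to 2.76 RPKM, and the ratio of Acadvl to Dvl2 was 33.2 or more in every library. How reads in the shared bases were counted was not tested.

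**Figure D4:**
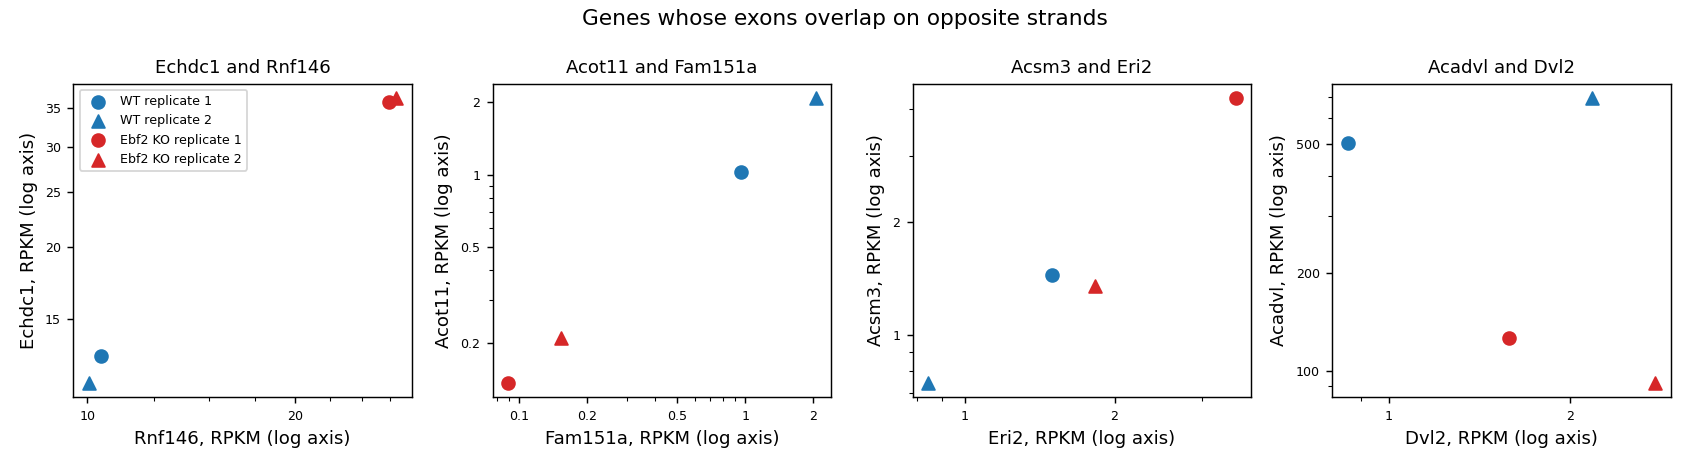
RPKM of 4 genes (vertical, log axis) against that of the gene whose exons overlap theirs on the opposite strand (horizontal, log axis) in each library; blue is WT, red is Ebf2 KO, circles are replicate 1 and triangles replicate 2. Echdc1 and Rnf146 are high in the same libraries (35.9 and 36.5 with 27.4 and 28.1 RPKM), whereas Acadvl is lowest at 91.6 RPKM in the library where Dvl2 is highest at 2.76 RPKM.

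Summed by role, the dehydrogenases went from 1535 and 1889.9 RPKM in WT to 536 and 532 in Ebf2 KO, the later steps of the cycle from 2220.2 and 2505 to 621 and 613, and electron transfer from 2454 and 2034 to 939 and 791. The thioesterases were at 234 and 209 RPKM against 145 and 128, with Acot13 alone at 166 and 140.4 against 55.6 and 61.6. Of the others, Acot2 and Acot11 stood lower in Ebf2 KO, Acot1 and Acot7 stood higher, and Acot9 overlapped. The long-chain synthetases stood the other way, at 236 and 208 RPKM against 469.6 and 304. Almost all of it was Acsl1, which had no call on RPKM (log2 fold change 0.79) or after centring (0.26). These sums are descriptions and were not tested.

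Around these enzymes, 49 further genes of acyl-CoA metabolism were listed, of which 35 had a row; 5 fell and 7 rose on RPKM, where 3.54% of all genes fell and 24.4% rose. Once centred, 9 of the 35 were lower and 4 higher, against 10.3% and 8.42% of all genes. The authors' deposited table has 10 lower and 5 higher, against 10.5% and 10.9%. The median log2 fold change of the 35 was 0.44, beside 0.45 for all genes, and -0.08 after centring, beside -0.07. Leaving out Ebf2 KO replicate 2 gave 0.53 on RPKM and 0.10 once centred, beside 0.36 and -0.06 for all genes. Once centred, the median was 0.06 without WT replicate 1 and -0.22 without WT replicate 2, beside -0.00 and -0.13 for all genes. By smallest p, the falling ones were led by Cpt1b, the muscle-type carnitine palmitoyltransferase, at 212 and 241 RPKM in WT and 10.4 and 11.7 in Ebf2 KO (limma adjusted p = 1.86e-04; a readthrough transcript listed as its own gene overlaps it), and by Slc27a2, a fatty acid transporter with very-long-chain synthetase activity, at 15.9 and 16.1 RPKM against 0.0541 and 0.0934 (limma adjusted p = 3.82e-04). The rising ones were led by Acbd4, an acyl-CoA-binding domain protein, at 17.3 and 14.2 RPKM against 66.7 and 49.5 (limma adjusted p = 0.00374), and by Acaa1b, a peroxisomal thiolase, at 6.20 and 11.4 RPKM against 41.9 and 30.8 (limma adjusted p = 0.00670; reads may be divided with its paralog Acaa1a).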

How the data were processed

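The authors deposited 1 table with RPKM per library, the mean RPKM of each genotype, the log2 ratio of KO to WT, a mean log2 CPM, and a p-value and FDR per gene, per the file headers. The authors name STAR, edgeR and mm9 in the submitters' processing notes; no source used here gives versions, counting, annotation or strand. Every gene listed reached 0.502 RPKM in some library.

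Library totals were recovered from 158 microRNA genes of known hairpin length, and all 12165 genes (100%) came out as whole reads within 1e-04 reads; for 626 genes the length was raised by a whole factor using the deposited log2 CPM. Limma 3.58.1 in R 4.3.3, with a variance trend (5.61 prior and 2 residual degrees of freedom), used log2(RPKM + 1) of 12165 genes in the 4 libraries, with a genotype term and Benjamini-Hochberg adjustment. The fit was checked on simulated data without a shift between libraries, so that check does not bear on the scaling. Alternatives were centring, quantile normalization, a pseudocount of 0.1, no trend, a block for the replicate number, a floor of 5 RPKM on the mean, each library left out, stricter thresholds, the authors' values and limma-voom on recovered reads. Centring with a library left out was added after the data were seen, for counts and medians over lists only.

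The 39 genes, the lists and the tests were chosen with earlier results of these data known. Every listed member was named, and of the further genes the 2 with the smallest p in each direction. Promoters are from RefSeq (GRCm38.p6); overlaps and 50-base words are from GENCODE M21, also on GRCm38, and no mm9 coordinates are given.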

Additional observations from a re-analysis of the deposited data

How the results depend on the processing

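Counts moved with the scaling. Higher and lower genes of all numbered 1024 and 1253 after centring, 1048 and 1010 with quantile normalization, 1717 and 334 at a minimum mean of 5 RPKM, 6325 and 746 with the replicate block, 565 and 145 at an adjusted p under 0.01, 1736 and 280 with an absolute log2 change of at least 1, 1325 and 1277 in the authors' deposited table, 979 and 1034 by voom on recovered reads. The 38 genes gave 2 and 19 after centring, 3 and 20 with quantile normalization, 2 and 16 at a minimum mean of 5 RPKM, 7 and 20 with the replicate block, 2 and 10 at an adjusted p under 0.01, 2 and 16 with an absolute log2 change of at least 1, 3 and 23 in the authors' deposited table, 2 and 21 by voom on recovered reads. The further genes gave 4 and 9 after centring, 3 and 9 with quantile normalization, 7 and 4 at a minimum mean of 5 RPKM, 17 and 8 with the replicate block, 3 and 3 at an adjusted p under 0.01, 5 and 3 with an absolute log2 change of at least 1, 5 and 10 in the authors' deposited table, 3 and 9 by voom on recovered reads. Leaving out 1 library gave 810 to 4477 higher and 166 to 561 lower of all genes on RPKM (415 to 904 and 578 to 1094 centred), 3 to 7 and 9 to 18 of the 38 (1 to 2 and 10 to 23 centred) and 4 to 10 and 3 to 7 of the further genes (1 to 4 and 5 to 10 centred); the lone library was assumed to vary like the others. With centring and WT replicate 2 left out, 724 of all genes were higher and 1092 lower, and with Ebf2 KO replicate 2 left out 727 were lower. Without a variance trend, or with a pseudocount of 0.1, 3 of the 38 were higher and 17 lower, as on RPKM with the main settings. The replicate numbers are not said to pair the samples, and the differences of replicate 1 and 2 correlated at 0.348 across genes between the genotypes; with 2 pairs this does not show pairing. Among the 38 genes, the log2 fold changes that turned in sign under these settings were all of genes not called on RPKM. Acad11, at 0.39 on RPKM, was at -0.14 (centring), -0.10 (quantile normalization), -0.25 (the authors' deposited table), -0.26 (voom). Acsl3, at 0.49 on RPKM, was at -0.03 (centring). Acsl4, at 0.02 on RPKM, was at -0.50 (centring), -0.47 (quantile normalization), -0.69 (the authors' deposited table), -0.61 (voom), -0.22 to 0.26 (1 library left out). Acsl5, at 0.08 on RPKM, was at -0.44 (centring), -0.44 (quantile normalization), -0.55 (the authors' deposited table), -0.57 (voom). Acsf2, at -0.23 on RPKM, was at -0.75 to 0.29 (1 library left out). Acot7, at 0.27 on RPKM, was at -0.26 (centring), -0.24 (quantile normalization), -0.34 (the authors' deposited table), -0.37 (voom). Acot9, at 0.07 on RPKM, was at -0.45 (centring), -0.41 (quantile normalization), -0.58 (the authors' deposited table), -0.60 (voom), -0.17 to 0.31 (1 library left out). Dbi, at 0.65 on RPKM, was at -0.05 (the authors' deposited table), -0.02 (voom). The share of the Acsl sum (Ebf2 KO minus WT, percentage points) was 1.26 for Acsl1 (2.54 with quantile normalization, 0.568 to 1.95 with 1 library left out), 0.0135 for Acsl3 (-0.237 with quantile normalization, -0.162 to 0.189 with 1 library left out), -0.349 for Acsl4 (-0.705 with quantile normalization, -0.522 to -0.175 with 1 library left out), -0.925 for Acsl5 (-1.6 with quantile normalization, -1.28 to -0.574 with 1 library left out). Except where given, the cause of these moves was not tested. Acsm5, with 98 reads or more per library, had the fewest reads.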
